A study of Mus musculus with 12 samples.

Results

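The 4 gap junction connexins Gja1, Gjb2, Gjb5 and Gjb6 were followed across 12 RNA sequencing libraries of cultured mouse cells. They were taken by gene symbol from a table of 24537 genes, from which 14 other connexins were also analysed. Levels are given in FPKM, which count sequenced fragments per length of transcript and per depth of sequencing, so that levels of different genes can be compared. The study set out to compare stromal cells that had been turned into epithelial cells with their source and with keratinocytes, the main cells of the epidermis. Each of 4 groups has 3 cultures, from animals of the strain Pdgfra-creERxLSL-tdTomato. The labels number them mouse 1, mouse 2 and mouse 3 in every group, and equal numbers were read as the same animal. In this strain the Cre recombinase follows the name of Pdgfra, a stromal receptor gene, and tdTomato is a red reporter.

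Adipose-derived stromal cells (ADSCs) were Pdgfra-positive primary cells of subcutaneous fat, grown in DMEM with serum. In vitro iSEPs (induced stratified epithelial progenitors) were epithelial cells obtained from such ADSCs in the dish. In vivo iSEPs were primary cultures of epithelial cells that arose from Pdgfra-positive ADSCs inside the animal. Keratinocytes were primary cultures from back skin. All but the ADSCs grew in a keratinocyte medium without serum, and so the medium and the cell type cannot be told apart in any comparison with ADSCs. The agents used for conversion, and the age of the animals, are not given in the sources used here.

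Connexins are membrane proteins that assemble in rings, and the rings of neighbouring cells dock to form gap junctions, which pass ions and small molecules from cell to cell. Different connexins of a cell can mix within a channel, and the mix sets what passes. Gja1 encodes connexin 43, the most widely expressed connexin, found in fibroblasts, heart and the lower epidermis. Gjb2 and Gjb6 encode connexin 26 and connexin 30, best known from the inner ear and from inherited deafness and thickened skin, and in skin from appendages and healing wounds. Gjb5 encodes a connexin of stratified epithelium.

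The members sit at 3 places in the mm10 genome. Gja1 lies on chromosome 10 from 56377300 to 56390419 on the plus strand, with no other connexin listed nearby. Gjb2 (57098602 to 57104702) and Gjb6 (57123301 to 57133611) are neighbours on the minus strand of chromosome 14, 18599 bases apart. Gjb5 lies on the minus strand of chromosome 4 from 127354809 to 127358164. All 4 members hold their whole coding sequence in 1 exon, of 1146 bases in Gja1, 678 in Gjb2, 813 in Gjb5 and 783 in Gjb6. No annotated gene on either strand overlapped any of the 4. None of their transcripts shared a 50-base window with the transcripts of another gene, and the longest run shared by Gjb2 and Gjb6 was 20 bases.

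The sequences just before the 4 start sites are shown because Gjb2 and Gjb6 share a cluster but not a pattern of levels, and because Gja1, Gjb2 and Gjb5 each had another order of the groups. Each is the 250 bases before the RefSeq start in build GRCm38.p6, written 5′ to 3′ along the gene's own strand. The windows are chr10:56377050-56377299 for Gja1 (plus), chr14:57104703-57104952 for Gjb2 (minus), chr4:127358165-127358414 for Gjb5 (minus) and chr14:57133612-57133861 for Gjb6 (minus). Capitals mark matches, on either strand, to 6 searched motifs.
Gja1: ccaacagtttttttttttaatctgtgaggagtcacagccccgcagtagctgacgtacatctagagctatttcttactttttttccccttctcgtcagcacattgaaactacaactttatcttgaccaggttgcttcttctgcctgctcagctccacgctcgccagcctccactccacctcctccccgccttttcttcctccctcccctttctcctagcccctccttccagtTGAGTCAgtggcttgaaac
Gjb2: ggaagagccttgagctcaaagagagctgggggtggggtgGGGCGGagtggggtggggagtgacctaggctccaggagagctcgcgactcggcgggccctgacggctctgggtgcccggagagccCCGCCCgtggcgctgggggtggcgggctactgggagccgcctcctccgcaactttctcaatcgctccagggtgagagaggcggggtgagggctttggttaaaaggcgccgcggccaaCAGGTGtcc
Gjb5: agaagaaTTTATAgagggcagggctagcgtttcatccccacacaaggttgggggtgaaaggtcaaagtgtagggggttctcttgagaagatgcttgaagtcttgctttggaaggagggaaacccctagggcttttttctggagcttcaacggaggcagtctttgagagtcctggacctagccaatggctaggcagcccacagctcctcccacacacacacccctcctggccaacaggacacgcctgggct
Gjb6: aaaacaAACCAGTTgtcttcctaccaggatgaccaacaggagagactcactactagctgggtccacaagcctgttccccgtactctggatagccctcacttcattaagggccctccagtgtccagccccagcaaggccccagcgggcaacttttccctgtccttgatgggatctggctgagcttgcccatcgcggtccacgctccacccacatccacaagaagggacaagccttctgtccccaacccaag
The Gja1 window held 1 match to TGANTCA, the letters bound by AP-1, from 19 to 13 bases before the start. Of all 32851 promoters of this length in the RefSeq table, 6.75% held such a match. In the Gjb2 window GGGCGG, the GC box, matched at 2 places (32.7% of promoters held at least 1), and CAGGTG, the E-box read by Snail and Zeb repressors, matched from 9 to 4 bases before the start (17.2% of promoters). Gjb5 had 1 match to TATAAA, on the opposite strand and far from the start (12.4% of promoters). Gjb6 had 1 match to AACNNGTT, the core letters of the grainyhead-like site (3.64% of promoters). GGAATG, the TEAD site, matched none of the 4 windows and 12.6% of all promoters. No 2 of these motifs overlapped. The Gjb2 window had the most G and C, 69.2% with 18 CG pairs, against 50% and 6 in Gja1, 54.4% and 3 in Gjb5, 56.8% and 5 in Gjb6, and medians of 52.4% and 6 over all promoters. These matches describe letters only.

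The libraries held 21008274 to 27767415 reads in listed genes, as recovered from the steps of the low FPKM values. Marker genes went with the labels. The summed level of 6 stromal markers (Pdgfra, Vim, Col1a1, Col1a2, Postn, Thy1) was 7821 to 9097 FPKM in ADSCs and at most 284 elsewhere. The sum of 6 basal keratinocyte markers (Krt5, Krt14, Trp63, Cdh1, Itga6, Col17a1) was 12.1 to 13.4 FPKM in ADSCs and at least 10160 in the other groups. One library stood apart from its group, in vivo iSEPs of mouse 3: its simple epithelial keratins Krt8 and Krt18 reached 103 and 95.5 FPKM, against at most 0.166 and 2.79 in the other in vivo libraries, and its Krt5 was 3410 FPKM against 9804 and 9252. Keratinocytes also had Krt8 (21.9 to 33.6 FPKM) and Krt18 (27.5 to 37.3), as did in vitro iSEPs of mouse 2 (7.17 and 24.4). The sum of 5 simple epithelial markers (Krt7, Krt8, Krt18, Krt19, Epcam) was 365.5 FPKM in that in vivo library and 288 to 308 in keratinocytes. It was 21.5 and 25.8 in the other in vivo libraries, 41.7 to 152 in in vitro iSEPs and 21.8 to 47.8 in ADSCs. Endothelial, glial and melanocyte marker sums stayed at or below 8.99 FPKM in every library. The immune sum was highest in ADSCs of mouse 2, at 65.1 FPKM. The muscle sum was 116 to 372 FPKM in ADSCs, 23.3 to 120 in in vivo iSEPs and at most 7.16 elsewhere. Actg2 made up most of it in ADSCs, at 106.1, 231.1 and 352.9 FPKM in mouse 1, 2 and 3. In in vivo iSEPs Actg2 was likewise most of the sum, at 23.01, 57.32 and 111.9 FPKM. Among the other listed genes, ADSCs had 7.445, 10.74 and 15.73 FPKM of Myh11 and 2.937, 5.997 and 3.621 of Des. Myog was at most 0.023 FPKM in ADSCs, and Ckm was at 0. Whether cells of these types were present, and their part in the connexin levels, was not tested.

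Gja1 was the most abundant of the 4 members in all 3 epithelial groups, and it was higher there than in the stromal cells. ADSCs of mouse 1, 2 and 3 had 22.7, 14.6 and 18.7 FPKM of Gja1. In vitro iSEPs had 313, 123 and 151 FPKM, in vivo iSEPs 124, 150 and 35.4, and keratinocytes 100.4, 92.2 and 109. Every epithelial library lay above every ADSC library, and the in vivo library of mouse 3 was the lowest epithelial one. The mean of in vitro iSEPs was 10.5 times that of ADSCs, while in vivo iSEPs had 5.53 times and keratinocytes 5.39 times as much.

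On the scale of log2(FPKM + 1), Gja1 rose by 3.22 (SE 0.48, limma adjusted p = 0.00019) from ADSCs to in vitro iSEPs. It rose by 2.19 (SE 0.48, limma adjusted p = 0.00303) in in vivo iSEPs, a call that was lost when mouse 2 was left out in all groups (1.64, limma adjusted p = 0.0749). The rise in keratinocytes was 2.39 (SE 0.48, limma adjusted p = 0.00157). Among the epithelial groups no Gja1 difference passed the test. In vitro iSEPs were 0.84 above keratinocytes (95% interval -0.22 to 1.89, limma adjusted p = 0.288), and in vivo iSEPs were 1.03 below in vitro iSEPs on the same scale (interval -2.09 to 0.02, limma adjusted p = 0.347). The latter ranged from -1.7 to -0.4 when a library or a mouse was left out, nearest 0 without the in vivo library of mouse 3, and the former from 0.44 to 1.11. In vivo iSEPs and keratinocytes differed by -0.20 (interval -1.26 to 0.86), or by 0.44 the other way without the in vivo library of mouse 3. These intervals leave room for differences of 2-fold or more between epithelial groups.

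Differentiation markers also varied within the iSEP groups. The summed level of 6 suprabasal markers (Krt1, Krt10, Ivl, Lor, Sbsn, Krtdap) was 2543, 875 and 1975 FPKM in in vitro iSEPs of mouse 1, 2 and 3, the order of their Gja1, but 1074, 913 and 337 in in vivo iSEPs, which is not. It was 306 to 348 FPKM in keratinocytes. Of the 6 genes, Krt1 and Krt10 followed the order of Gja1 in both iSEP groups, Lor, Sbsn and Krtdap in 1 group each and Ivl in neither. The part of these markers in the result was not tested. In bulk cultures, fewer cells of a type and less RNA per cell cannot be told apart.

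Gjb2, often counted as an epithelial connexin, was well represented in the stromal cells and lowest in keratinocytes. ADSCs had 15.8, 13.1 and 28.2 FPKM of Gjb2, close to their Gja1. In vitro iSEPs had 30.2, 23.9 and 27.5 FPKM, in vivo iSEPs 15.6, 16.98 and 7.76, and keratinocytes 3.66, 2.35 and 2.46. All 9 other libraries lay above the 3 keratinocyte libraries, while ADSCs overlapped both iSEP groups. Of all genes tested, 69.5%, 40.8% and 27.8% did not overlap between keratinocytes and ADSCs, in vitro iSEPs and in vivo iSEPs. Mean Gjb2 was 6.74 times higher in ADSCs than in keratinocytes, 9.62 times in in vitro iSEPs and 4.76 times in in vivo iSEPs.

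Gjb2 fell by 2.33 (log2, SE 0.31, limma adjusted p = 7.45e-05) from ADSCs to keratinocytes. Against keratinocytes it was higher by 2.89 in in vitro iSEPs (SE 0.31, limma adjusted p = 0.000479) and by 1.86 in in vivo iSEPs (SE 0.31, limma adjusted p = 0.00507). The latter call was lost when mouse 2 was left out (1.58, limma adjusted p = 0.214). Between ADSCs and in vitro iSEPs the difference was 0.56 (interval -0.12 to 1.24, limma adjusted p = 0.149), and it passed the test without ADSCs of mouse 3 (0.86, adjusted p = 0.0329) or without that mouse altogether (0.85, adjusted p = 0.0163). In vivo iSEPs stood at -0.47 relative to ADSCs (interval -1.15 to 0.21, limma adjusted p = 0.235) and at 0.16 once mouse 3 was left out. In vivo and in vitro iSEPs differed by -1.03 (interval -1.70 to -0.35), which did not pass adjustment over all genes (limma adjusted p = 0.136) and ranged from -1.31 to -0.69 in the leave-outs, nearest 0 without mouse 3. Stromal markers also stood higher in in vitro iSEPs than in keratinocytes. Of the 6, 5 were called higher (median log2 difference of the 6, 2.03), beside 5.22% of all genes tested. Their summed levels were 76.7, 284 and 210 FPKM in in vitro iSEPs of mouse 1, 2 and 3, against 25.8 to 32.1 in keratinocytes. Within in vitro iSEPs that order is the reverse of Gjb2. In in vivo iSEPs the sums were 29.1, 51.2 and 172 FPKM, and mouse 3, with the highest sum, had the lowest Gjb2. There 0 of the 6 were called against keratinocytes, beside 3.41% of all genes higher and 4.08% lower. The part of the stromal markers in the Gjb2 differences was not tested.

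Unlike Gjb2, Gjb5 was lowest in ADSCs and highest in keratinocytes. ADSCs had 3.12, 2.92 and 3.68 FPKM of Gjb5, in vitro iSEPs had 5.71, 11.9 and 6.95, in vivo iSEPs 12.9, 5.58 and 14.7, and keratinocytes 17.04, 19.7 and 21.97. Neither iSEP group overlapped ADSCs or keratinocytes, and they overlapped each other. Of all genes tested, 63.7% and 54.2% did not overlap between ADSCs and the in vitro and in vivo groups. Against keratinocytes those shares were 40.8% and 27.8%. The means of the in vitro, in vivo and keratinocyte groups were 2.52, 3.41 and 6.04 times that of ADSCs.

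From ADSCs, Gjb5 rose by 1.06 (log2, SE 0.31, limma adjusted p = 0.0148) in in vitro iSEPs, a call lost without the in vitro library of mouse 2 (0.79, adjusted p = 0.0615) or without mouse 3 (1.21, adjusted p = 0.0505). It rose by 1.41 (SE 0.31, limma adjusted p = 0.00328) in in vivo iSEPs, lost without mouse 1 (1.25, adjusted p = 0.0505). The rise in keratinocytes was 2.28 (SE 0.31, limma adjusted p = 0.000106). In vitro iSEPs were below keratinocytes, at -1.22 (SE 0.31, limma adjusted p = 0.0324). That call did not hold with the mouse as a replicate block (adjusted p = 0.05) or when any of 5 single libraries from these groups or 1 ADSC library was left out (highest adjusted p = 0.203, without mouse 3). In vivo iSEPs were at -0.86 relative to keratinocytes (interval -1.55 to -0.17, limma adjusted p = 0.129), which passed the test without the in vivo library of mouse 3 (-1.10, adjusted p = 0.0488). The iSEP groups differed by 0.35 (interval -0.34 to 1.05, limma adjusted p = 0.674), or by 0.008 without mouse 1 and 1.02 without mouse 2. The mean ADSC level of Gjb5 was 16.6% of the keratinocyte mean.

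Gjb6 was the least abundant member and peaked in in vitro iSEPs. It was listed at 0 in all 3 ADSC libraries, where 3 reads would have given 0.0448 to 0.0511 FPKM. In vitro iSEPs had 3.39, 2.80 and 2.09 FPKM, from 183, 176 and 109 reads. In vivo iSEPs had 0.373, 0.864 and 0.552 FPKM (22, 55 and 37 reads), and keratinocytes 0.395, 0.296 and 0.300 (25, 18 and 19 reads). No in vitro library overlapped any other group, and in vivo iSEPs overlapped keratinocytes. Of all genes tested, 63.7%, 15.0% and 40.8% did not overlap between in vitro iSEPs and ADSCs, in vivo iSEPs and keratinocytes. Gjb6 passed the filter on low values only through the 3 in vitro libraries, so its difference from groups below 1 FPKM follows in part from that filter.

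Mean Gjb6 in in vitro iSEPs was 4.63 times that of in vivo iSEPs and 8.35 times that of keratinocytes. On the log2(FPKM + 1) scale the difference from keratinocytes was 1.48 (SE 0.16, limma adjusted p = 0.000479). In vivo iSEPs were lower than in vitro iSEPs, at -1.23 (SE 0.16, limma adjusted p = 0.00633), a call lost without mouse 2 (-1.34, adjusted p = 0.134) and in a fit of these 2 groups alone (adjusted p = 0.199). In vivo iSEPs and keratinocytes differed by 0.25 (interval -0.09 to 0.60, limma adjusted p = 0.389), with 0.12 to 0.39 in the leave-outs. Against ADSCs no fold is given, since all 3 are at 0. The differences on the log2(FPKM + 1) scale were 1.90 (limma adjusted p = 1.96e-06), 0.66 (limma adjusted p = 0.00476) and 0.41 (limma adjusted p = 0.0456) for the in vitro, in vivo and keratinocyte groups. The second was lost without mouse 2 (0.55, adjusted p = 0.12). The third was lost with the replicate block (adjusted p = 0.0617), under median scaling (adjusted p = 0.315) and under quantile normalization (adjusted p = 0.111). It was also lost when any 1 of 8 single libraries was left out, all 6 of ADSCs and keratinocytes among them. The highest adjusted p of the leave-outs was 0.194, without mouse 2.

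**Figure D1:**
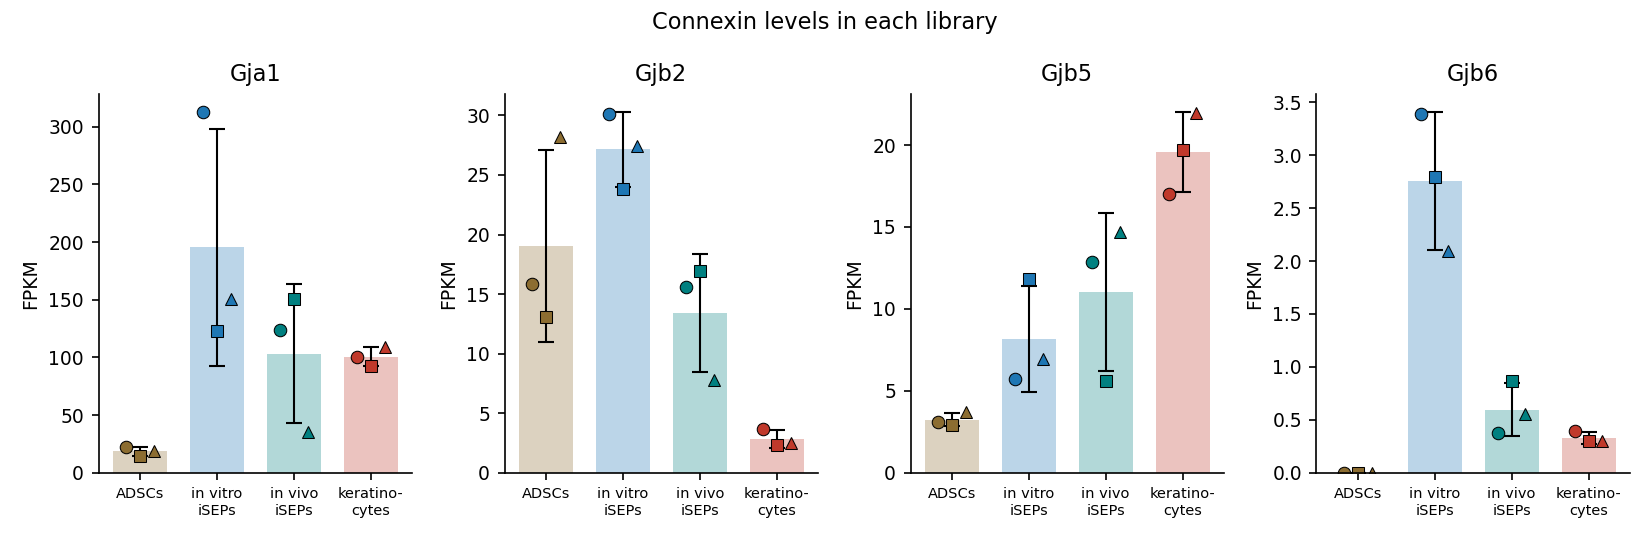
FPKM of Gja1, Gjb2, Gjb5 and Gjb6 (one panel each, separate linear axes) in the 4 groups, with bars at the mean, error bars of 1 SD (n = 3) and a circle, square and triangle for mouse 1, 2 and 3. Gja1 is lowest in ADSCs, Gjb2 is lowest in keratinocytes, Gjb5 is highest in keratinocytes and Gjb6 is highest in in vitro iSEPs.

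**Figure D2:**
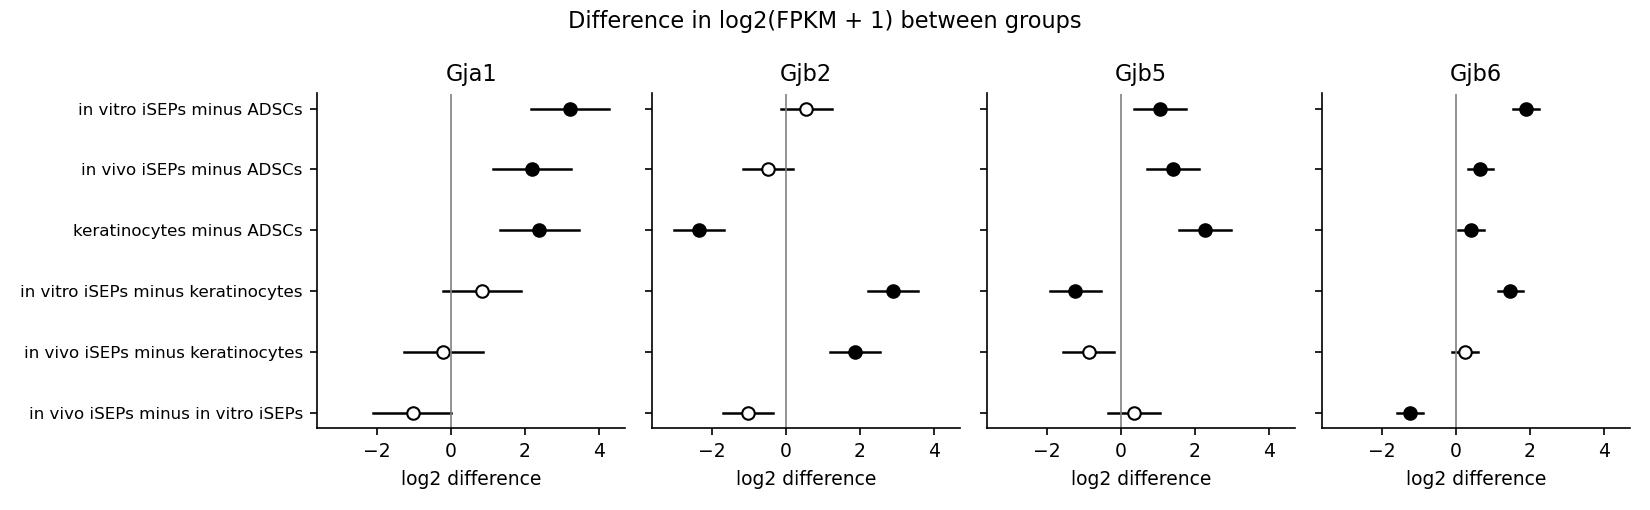
Difference in log2(FPKM + 1) for 6 comparisons between groups (rows), one panel per member, with the 95% interval of the limma fit as a line. Filled points passed an adjusted p of 0.05 and open points did not. Gja1 has 3 filled points, all against ADSCs, while Gjb2 has filled points in the 3 comparisons with keratinocytes.

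The counts of calls have to be read against how many genes moved. From ADSCs to in vitro iSEPs, 3 of the 4 members were called higher and 0 lower, beside 53.8% of the 12364 genes tested called in either direction, 32.1% higher and 21.7% lower. For in vivo iSEPs the members' count was the same, beside 47.6% (27.6% higher, 20.0% lower). For keratinocytes 3 were called higher and 1 lower, beside 53.5% (32.8% higher, 20.7% lower). With more than 47% of all genes called, the number of connexins called against ADSCs is no result about connexins. The 3 comparisons share the ADSC libraries, and each count includes Gjb6. Between in vitro iSEPs and keratinocytes 2 members were called higher and 1 lower, where 11.3% of all genes were called (5.22% higher, 6.12% lower). Between in vivo iSEPs and keratinocytes 1 was called higher, beside 7.48% (3.41% higher, 4.08% lower). Between the iSEP groups 1 was called lower, beside 1.63% (0.679% higher, 0.946% lower). That 1 is Gjb6, which is also 1 of the 2 called higher against keratinocytes. Since it passed the filter only through the in vitro libraries where it is high, nothing is read from these counts. The members' median log2 difference was 1.48, 1.04 and 1.34 in the 3 comparisons with ADSCs, against 0.15, 0.14 and 0.18 over all genes. Gjb6 is 1 of the 2 middle values behind each of these medians, and the members were chosen with earlier results known. Nothing is therefore read from the medians either. Scaling each library to its median moved the share of called genes that were higher from 59.7% to 47.3% in in vitro iSEPs and from 61.4% to 46.8% in keratinocytes, both against ADSCs, and from 45.5% to 56.5% in in vivo iSEPs against keratinocytes. No called member changed direction under it.

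Of the 14 other connexins analysed, Gjc1 passed the filter. Gjc1, which encodes connexin 45 of mesenchyme and heart, fell in all 3 epithelial groups, the direction that Gja1 did not take. It was at 8.09, 6.94 and 8.24 FPKM in ADSCs. In vitro iSEPs had 0.375, 1.08 and 0.736 FPKM, in vivo iSEPs 0.054, 0.050 and 0.414, and keratinocytes 0.522, 0.526 and 0.506. Every ADSC library lay above every other library. Of all genes tested, 63.7%, 54.2% and 69.5% did not overlap between ADSCs and the in vitro, in vivo and keratinocyte groups. The ADSC mean was 10.6, 44.9 and 15 times that of the in vitro, in vivo and keratinocyte groups (log2 -2.36, -2.91 and -2.53, highest limma adjusted p = 8.45e-07), and those calls held in all 23 alternatives. Gjc1 passed the filter on low values only through the ADSC libraries and the in vitro library of mouse 2. Its fall therefore follows in part from that filter. The in vivo libraries had 3, 3 and 26 reads of Gjc1, so depth limits the fold of 44.9. The remaining 13 did not pass the filter, none of them exceeded 0.665 FPKM in any library, and 3 were at 0 throughout.

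Levels of the members did not show Gja1 giving way to Gjb genes as a whole: Gja1 and Gjb5 were higher in every epithelial library than in any ADSC library, and Gjb2 was lower in keratinocytes. Such groups are common here, since 63.7%, 54.2% and 69.5% of all genes tested did not overlap between ADSCs and the in vitro, in vivo and keratinocyte groups. For a view within each library, FPKM were summed over the 4 members and the 14 other connexins analysed. Connexins that are not reported here lie outside this sum, so the values are shares of these 18 genes and not of all connexin RNA. Gja1 made up 44.9%, 38.3% and 31.6% of the sum in the ADSC libraries. The in vitro libraries had 88.7%, 75.6% and 80%, the in vivo libraries 81.0%, 86.5% and 59.9%, and the keratinocyte libraries 82.1%, 80% and 80.9%. Every epithelial library lay above all ADSC libraries, and the in vivo library of mouse 3 was the lowest of them. Gjb2 held 37.8% ± 8.6 (SD, n = 3) of the sum in ADSCs, 12.6% ± 3.52 in the in vitro group, 11% ± 1.83 in the in vivo group and 2.29% ± 0.621 in keratinocytes. Gjb5 held 6.69% ± 0.856 in ADSCs and 15.8% ± 1.65 in keratinocytes, with 4.2% ± 2.87 and 12.2% ± 11.3 in the in vitro and in vivo groups, where the library of mouse 3 had 24.9%. The Gjb2 and Gjb5 shares thus stood in opposite order in ADSCs and keratinocytes. Gjc1 took 16.1% ± 2.16 in ADSCs and at most 0.42% on average elsewhere. The sum itself was 49.3 ± 10.7 FPKM in ADSCs. The in vitro group had 235 ± 103 FPKM, the in vivo group 129 ± 61 and the keratinocytes 124 ± 9.71. Without the in vivo library of mouse 3 the mean in vivo Gja1 share was 83.7%. No test was made of the shares.

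**Figure D3:**
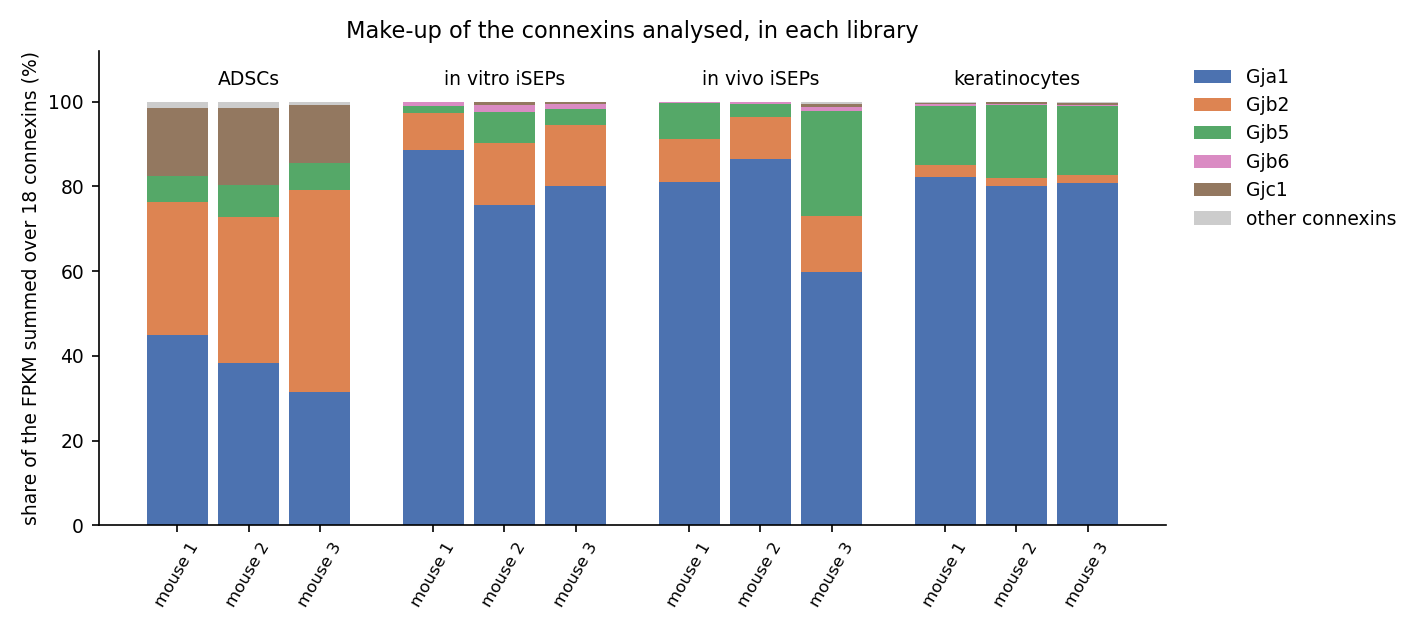
Share (percent, vertical axis) of the FPKM summed over the 18 connexins analysed that each of them holds, in each of the 12 libraries; connexins not reported here are outside the sum. Gja1 holds 31.6% to 44.9% in ADSCs and 80% to 82.1% in keratinocytes, and the Gjb2 and Gjc1 parts of ADSCs are small in keratinocytes, where Gjb5 is the next largest part.

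The neighbours Gjb2 and Gjb6 on chromosome 14 did not move together throughout. Both had their highest mean in in vitro iSEPs, but they parted in ADSCs, where Gjb2 averaged 19.0 FPKM and Gjb6 was at 0. Over the 12 libraries, which share groups and animals, Pearson's r of their log2(FPKM + 1) was 0.454. For Gjb2 with Gjb5 it was -0.722, and for Gja1 with Gjb6 it was 0.759. Cryl1, which lies beyond Gjb6 within 250000 bases, fell, with log2 differences from ADSCs of -0.91, -0.66 and -0.99 in the in vitro, in vivo and keratinocyte groups (highest limma adjusted p = 0.0108). Zmym2, on the other side of Gjb2, was at 0.20, 0.41 and 0.55 in the same order, and the last 2 passed the test (limma adjusted p = 0.00871 and 0.00139). Near Gja1, Tbc1d32 was at 0.51, 0.38 and 0.55, and the first and the last passed the test (limma adjusted p = 0.04 and 0.0296). The other genes of the table in these windows, Gja3 and B020004C17Rik, did not pass the filter.

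Outside the connexins, the genes whose levels most resembled each member were ranked by Pearson's r of log2(FPKM + 1) over the same 12 libraries, among genes reaching a mean of 5 FPKM in some group. For Gja1 they were Epha4, an ephrin receptor, Blmh, a cysteine protease, and Tnni2, a troponin subunit, each with r = 0.973. For Gjb2 they were Loxl4 (0.929), a matrix cross-linking enzyme, Klhl5 (0.904) and Ppm1f (0.894), a phosphatase. Gjb5 was closest to Pla2g7 (0.976), Tnnt2 (0.974) and Lrp11 (0.972), and Gjb6 to Trmt1 (0.953), Chka (0.937), a choline kinase, and Adss (0.935). With 4 groups of 3, such values mostly reflect the order of the group means.

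Transcripts of proteins that hold, move or modify connexins were called in both directions. Of 32 listed partner and assembly genes, 30 were tested. From ADSCs, 10 were called higher and 8 lower in in vitro iSEPs, 11 and 8 in in vivo iSEPs, and 14 and 9 in keratinocytes, with medians of 0.05, 0.05 and 0.27, against 0.15, 0.14 and 0.18 for all genes. Over all genes tested, 32.1%, 27.6% and 32.8% were called higher and 21.7%, 20.0% and 20.7% lower, the background against which these counts are read. Cdh1, the E-cadherin that brings epithelial membranes together, averaged 0.151 FPKM in ADSCs and 185, 131 and 252 in the epithelial groups, with log2 differences of 7.29, 6.79 and 7.77. Ezr, encoding the linker ezrin, rose by 4.60, 3.77 and 4.62. Cav2, encoding a caveolin, rose by 3.17, 3.20 and 3.95. Nov (Ccn3), a secreted protein that can bind connexin 43, fell, with differences of -6.06, -6.11 and -6.15, and so did Akap12, a kinase anchor, at -4.95, -3.79 and -3.32. The highest limma adjusted p among these was 2.8e-05. Nov passed the filter on low values only through ADSC libraries, and Cdh1 only through epithelial libraries. Their differences follow in part from that filter. Compared with keratinocytes, 0 of the 30 were called higher and 4 lower in each iSEP group, and none was called between the iSEP groups. Panx1, a pannexin that forms channels of its own, rose from 11.4 FPKM in ADSCs to 16.4, 20.7 and 17.4 (log2 0.49, 0.80 and 0.56, limma adjusted p = 0.0365, 0.00301 and 0.0199). The first and the third were lost under both other scalings and without single libraries, ADSCs and keratinocytes among them (highest adjusted p = 0.193 and 0.141), and the second without mouse 2 (adjusted p = 0.0614).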

How the data were processed

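The authors deposited 1 table of FPKM values for 24537 genes in 12 libraries. Per the labels' protocols, RNA came from Zymo columns and libraries from a TruSeq RNA kit. The sources used here do not say whether the kit marks strand. The submitters' processing notes name the mm10 genome, STAR 2.5.1b, HOMER and FastQC 0.11.5. Per the file headers, HOMER counted reads of exons on the plus setting for strand, condensed transcripts to genes and scaled to FPKM. No count model was used, since FPKM are not counts. The table's 3 other columns of per-sample values match no sample analysed here and were not used.

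Low FPKM values were whole multiples of 1 read in every library (100% within 0.15 reads), which gave the depths and read numbers. Intervals cover the spread between cultures, and 3 reads were taken as the limit that a count of 0 allows.

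The tests were made with limma 3.58.1 (R 4.3.3) on log2(FPKM + 1). A gene needed 1 FPKM or more in 3 or more libraries, which kept 12364 genes, and these entered 1 fit of 4 group means with a mean-variance trend. Each comparison was tested two-sided, with Benjamini-Hochberg adjustment over all genes kept, and a gene was called at an adjusted p under 0.05. A log2 difference on this scale understates the change of low genes. Other folds are ratios of mean FPKM. The procedure was also run on simulated data with independent noise and few moved genes. Far more genes were called against ADSCs in the real data, so that run does not vouch for the results here.

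The labels give the mouse number, which was read as pairing the samples. The main fit left the mouse out. Deviations of the 18 same-mouse pairs correlated between -0.178 and 0.210, and 6 pairs were over 0.1. Pairs of different mice ranged from -0.294 to 0.312. Such ranges cannot decide whether equal numbers pair the cultures, and no conclusion is drawn from them. Between ADSCs and keratinocytes, same-mouse values were 0.210, 0.184 and 0.155 for mouse 1, 2 and 3, and different-mouse values were at most 0.139. Between the iSEP groups, same-mouse values were 0.169, -0.093 and 0.031, and different-mouse values reached 0.312. Promoters were read from a RefSeq table (GRCm38.p6, 4 of 4 members matched), and transcript sharing from GENCODE.

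Some connexins and neighbouring genes are not reported here, and the summed connexin FPKM leaves them out. The members and gene lists were chosen with earlier results of these data known. Named genes are the members, the other analysed connexins and pannexins that passed the filter, up to 4 called partner genes with the largest change in each comparison with ADSCs, the marker genes that give a list's range, and the 3 genes most correlated with each member. Neighbours are the genes of the table within 250000 bases of Gja1, Gjb2 or Gjb6, a rule set after the data were seen. Krt8, Krt18 and Krt5 by library, and the muscle genes Actg2, Myh11, Des and Myog, were named after their values were seen.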

Additional observations from a re-analysis of the deposited data

How the results depend on the processing

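Each member comparison was recomputed under 23 alternatives (22 for Gjb6, which has no value under a filter of 5 FPKM): a pseudocount of 0.1, no filter, a filter of 5 FPKM, median scaling, quantile normalization, only the 2 groups compared, array weights, the mouse as a replicate block, and leaving out each library or each mouse. Of 15 member calls, 7 passed in every alternative. Against ADSCs they were Gja1 and Gjb6 in in vitro iSEPs and Gja1, Gjb2 and Gjb5 in keratinocytes. Between in vitro iSEPs and keratinocytes they were Gjb2 and Gjb6. The Gjb6 calls follow in part from the filter on low values. The share of all called genes that pass every alternative was not computed, so the count is no result about connexins. Gjb6 in keratinocytes against ADSCs lost its call under median scaling (0.22), quantile normalization (0.34) and the replicate block (0.41). Gjb5 in in vitro iSEPs against keratinocytes lost it with no filter and under the replicate block (-1.22 in both), and Gjb6 between the iSEP groups lost it with only those 2 groups (-1.23). The replicate block changed no other member call. Counted over the 4 members only, the Gja1 share was 46.4% in ADSCs (38.3% over the 18 connexins analysed).

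The number of genes called between in vitro iSEPs and keratinocytes was 2521 with array weights (1403 otherwise). Between in vivo iSEPs and keratinocytes it was 424 with only those groups (925 otherwise). Between the iSEP groups it was 1 with only those groups, 49 with array weights and 128 with the replicate block (201 otherwise). Leaving out a library or a mouse gave 4295 to 7152, 3486 to 6281 and 3920 to 7087 genes called for the in vitro, in vivo and keratinocyte groups against ADSCs, 193 to 2107 and 35 to 1676 for the iSEP groups against keratinocytes, and 2 to 360 between iSEP groups.

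Under the same leave-outs, log2 differences from ADSCs ranged from 0.34 to 0.86 for Gjb2 and 0.73 to 1.26 for Gjb5 in the in vitro group. For in vivo iSEPs they ranged from 1.64 to 2.84 for Gja1, -0.88 to 0.16 for Gjb2, 1.18 to 1.8 for Gjb5 and 0.55 to 0.77 for Gjb6, and in keratinocytes from 0.38 to 0.43 for Gjb6. Against keratinocytes, Gjb5 ranged from -1.49 to -1.02 in the in vitro group. In in vivo iSEPs Gja1 ranged from -0.65 to 0.5, Gjb2 from 1.58 to 2.19 and Gjb5 from -1.1 to -0.46. Between iSEP groups Gjb6 ranged from -1.37 to -1.01. The Gja1 share ranged from 34.9% to 41.6% in ADSCs, 77.8% to 84.3% in the in vitro group, 70.4% to 83.7% in the in vivo group and 80.5% to 81.5% in keratinocytes.

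Of genes that are no members, alternatives added after seeing the data reversed the sign only of differences that had not been called. Some calls were lost under them, as given above for Cav2, Akap12, Cdh1 and Panx1. Against keratinocytes in in vitro iSEPs, Panx1 ranged from -0.29 to 0.16 and Ezr from -0.3 to 0.33 (0.009 with median scaling) over the leave-outs. In in vivo iSEPs, Panx1 ranged from -0.007 to 0.51 and Akap12 from -0.89 to 0.079. Between iSEP groups, Cav2 ranged from -0.13 to 0.21 and Cdh1 from -0.83 to 0.033, and Nov was 0.007 with quantile normalization. The cause of these changes was not tested. Fewer libraries entered each leave-out fit. Depth limits Gjb6, which rests on 18 to 55 reads per library in in vivo iSEPs and keratinocytes. It also limits Gjc1 in in vivo iSEPs, with 3, 3 and 26 reads.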
